A study of Mus musculus with 20 samples.

Results

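T cell acute lymphoblastic leukaemia (T-ALL) is a cancer of immature T cells, and the T-ALL arrays described here fell into 2 sets that differed in red cell RNA. The sets were chosen by a measured value. Among the 7 arrays labelled T-ALL, the 4 with the probe for Car1 (carbonic anhydrase 1, an enzyme of red cells) at 8 or above on the log2 scale formed the Car1-high set, and the 3 with Car1 below 8 formed the Car1-low set, out of 20 arrays in the series. T-ALL 2, 3, 6 and 7 had Car1 at 13.01, 12.04, 12.82 and 10.24, and T-ALL 1, 4 and 5 had it at 6.89, 6.81 and 6.83. The value just inside the limit was 10.24 and the value just outside was 6.89, so no array lay near it. These values, and the erythroid genes that went with them, describe how the sets were made and are no finding.

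All 7 T-ALL arrays carry the strain label F1(WB x B6/Ly5.1), a cross of WB mice with B6 mice of the Ly5.1 allele. The labels give no treatment, age or tissue for a T-ALL array, and they do not say whether arrays came from separate mice, so any spread given here is that between arrays and may be technical. The other 13 arrays were 3 T-ALL marked Rag- (a mark the labels do not explain) and 4 thymus grafts at 10 weeks, of the same cross, then 2 wild-type thymus and 2 wild-type spleen arrays of C57BL/6 and 2 host spleen arrays of WB mice. RNA came from tissue in vivo, cell suspensions or sorted cells. The labels name total thymocytes or total splenocytes for the wild-type and host arrays, and do not say which for the T-ALL, Rag- and graft arrays.

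T cell precursors in the thymus pass from double-negative stages, at which Notch signalling commits them and the pre-T cell receptor is assembled, through a CD4 and CD8 double-positive stage that recombines the receptor alpha chain with the RAG enzymes, to mature single-positive cells. Notch receptors are cut upon ligand binding, and the freed part switches on targets such as Hes1, Dtx1 and Nrarp; activating changes of this pathway are frequent in T-ALL. Leukaemic samples taken from a mouse can also hold blood, marrow, stroma or the host organ, and each of these brings its own transcripts.

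The arrays were compared on the log2 intensities that the authors deposited, which had been quantile normalized. Probes over 7.12 counted as above background, and the brightest probe stood for its gene. With the erythroid list left out, 12655 genes were compared. A gene was called higher or lower when the sets did not overlap and their means differed by at least 1 on the log2 scale, which is 2-fold. Because the sets were made from the same arrays, these counts have no test. Called higher were 288 genes, 2.28% of those compared, and called lower were 155, or 1.22%. Without T-ALL 5 the count of lower genes was 248. Over all genes 47.7% had a positive difference and the median was −0.01. All 288 and all 155 had the same sign on chip 1 and on chip 2, a direction that the lack of overlap fixes, so it is no sign of stability. Chip was read from the first number of each array title, which was assumed to name the array carrier. It crossed the sets: T-ALL 2 and 3 were with T-ALL 1 on chip 1, and T-ALL 6 with T-ALL 4 and 5 on chip 2. T-ALL 7 was the only array of the split on chip 3, with the Rag- arrays. Across all genes, with Car1 and the erythroid list included, pairs of arrays within the Car1-high set correlated at 0.951 to 0.972. Pairs within the Car1-low set correlated at 0.970 to 0.979, and pairs between the sets at 0.925 to 0.948. The genes that made the split are among those correlated, so the gap is no separate sign that the sets differ.

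The test used the 13 arrays that the rule did not touch. Each gene was regressed on the Car1 level with the label of the array as a factor (limma, 7 residual degrees of freedom, Benjamini-Hochberg over 12709 genes), so the slope is the log2 change per log2 unit of Car1 within a label. At an adjusted p below 0.05, 345 genes rose with Car1 (2.71%) and 268 fell (2.11%). These counts rest on few arrays. The wild-type thymus, wild-type spleen and host spleen labels have 2 arrays each. Leaving out either array takes the whole label out of the slope, so the 2 leave-outs of a label are the same comparison. The host spleens had Car1 at 6.76 and 6.90, so they weigh little in the slope itself. They were 1545 rising and 1457 falling without thymus graft 3, 141 and 71 without graft 1, 137 and 74 without graft 4, 194 and 134 without host spleen 4, and 194 and 133 without host spleen 5. With each array recentred the split was 356 rising and 184 falling. In addition, the content of some of these arrays goes against their labels: the mean of the double-positive thymocyte list was 11.64 and 11.43 in host spleens 4 and 5 and 10.36 in wild-type spleen 3, but 8.50 in wild-type thymus 1, where the neutrophil list averaged 12.88. Of the 288 genes called higher in the Car1-high T-ALL, 97 also rose over the 13 arrays (33.7%) and 0 fell, with a positive slope for 259. Of the 155 called lower, 30 also fell (19.4%) and 0 rose, with a negative slope for 133. Thymus graft 3, the only graft with Car1 above 8, at 11.45, weighs most in these overlaps. Without it, 12.2% of all genes rose and 11.5% fell, and of the 288 genes 141 rose and 23 fell, while of the 155 genes 38 fell and 11 rose. Without graft 1 or graft 4, 51 of the 288 rose and 13 of the 155 fell. Counts of list members on the other arrays are therefore given without graft 3 as well, to be read against those shares. Of the 31 genes named in the text that rose or fell, 17 kept their call without each of the 13 arrays, and for the others the arrays whose removal ended the call are given.

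**Figure D1:**
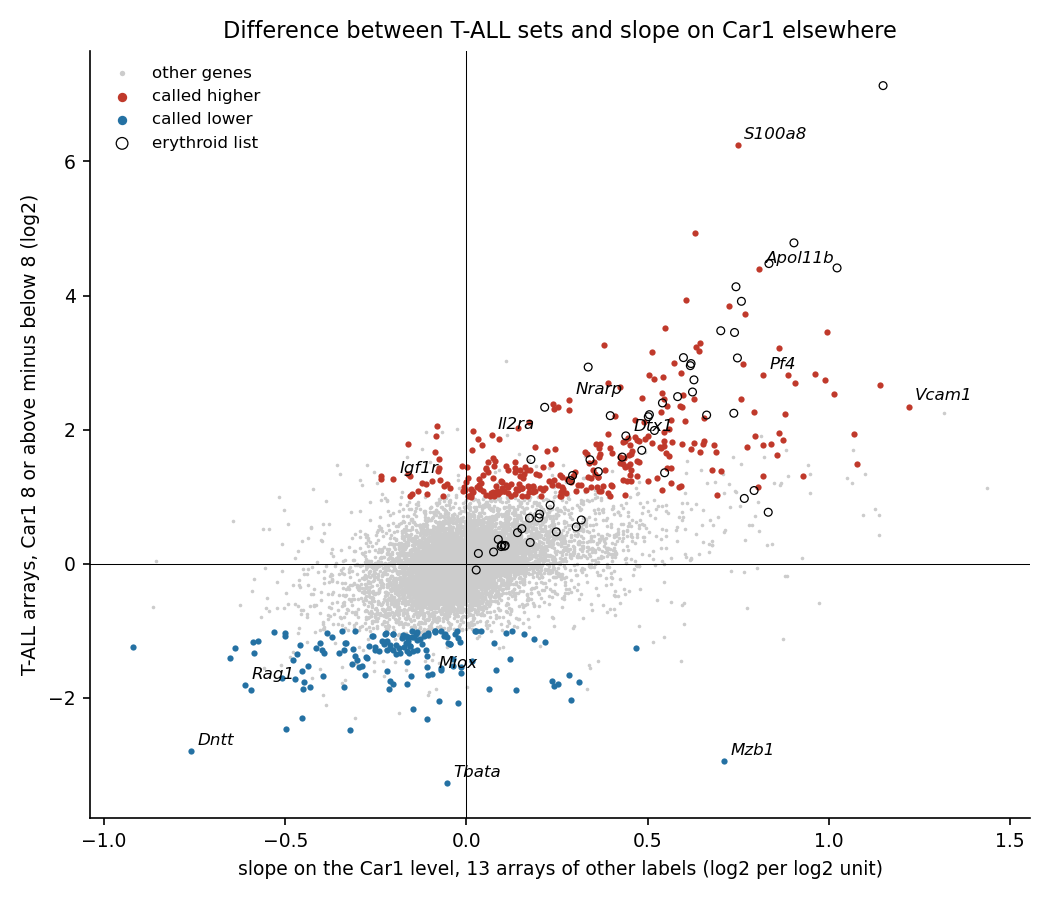
Each point is a gene. The vertical axis is the log2 difference between T-ALL arrays with Car1 at 8 or above and those below 8, and the horizontal axis is the limma slope on the Car1 level over the 13 arrays of other labels. Genes called higher (red) lie mostly at positive slopes and those called lower (blue) mostly at negative ones, while Mzb1 and Tbata lie away from that pattern. Erythroid genes are open circles.

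T cell transcripts were high in both sets. The list of the T cell receptor (TCR) complex, which holds CD3 chains and signalling proteins, had a mean of 11.53, 11.30, 10.98 and 11.39 in T-ALL 2, 3, 6 and 7 and 11.68, 11.64 and 11.55 in T-ALL 1, 4 and 5. Cd3e, a signalling chain of the receptor, differed by only 0.03, with overlapping sets at 12.94 to 13.85 and 13.22 to 13.39. In the erythroid list, 55 of 69 genes were measured, 44 were higher in every Car1-high array and 33 were called higher, with a median difference of 1.59. Slc4a1, the band 3 anion exchanger of the red cell membrane, was at 14.58, 14.35, 15.13 and 13.59 in the Car1-high arrays and at 7.24, 7.36 and 7.24 in the Car1-low arrays. Aqp1, the water channel of red cells, differed by 4.79 and Trim10, a gene of terminal erythroid maturation, by at least 19.1-fold. A fold is written as "at least" where the dimmer set was not above background. The list mean was 9.84 ± 0.58 in the Car1-high arrays and 7.92 ± 0.03 in the Car1-low arrays (SD, n = 4 and 3), and T-ALL 7 was the lowest of its set. On the 13 other arrays 28 of the 55 rose with Car1, and Car1 belongs to the same list, so this count supports nothing.

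Outside the erythroid list, the neutrophil genes S100a8 and S100a9 had the largest differences, 6.24 and 4.93 on the log2 scale. Apol11b, not a gene of this list, came next at 4.39, before Lcn2 at 3.94. S100a8, a calcium-binding alarmin of neutrophils, was at 12.51, 12.96, 14.62 and 13.88 in T-ALL 2, 3, 6 and 7, against 7.28, 7.27 and 7.21 in T-ALL 1, 4 and 5, a 75.5-fold difference. All Car1-low arrays were close to background for it. Its partner S100a9 was at least 26.1-fold higher. Lcn2, Ltf and Camp, proteins of neutrophil granules, were at least 10.9-fold, at least 10.1-fold and 9.57-fold higher, and Mpo, the myeloperoxidase of granulocyte precursors, was at least 7.71-fold higher with 10.23, 8.64, 11.63 and 9.76 against 6.74, 6.76 and 6.81. The second probe of Ltf differed by only 0.25 on the log2 scale, against 3.51 for the probe used. The 4 probes of Mpo differed by 0.36 to 3.30, and 3 were apart. Of the 23 measured genes of the neutrophil list, 14 were called higher and 0 lower, beside 2.28% and 1.22% of all genes. The list mean was 8.53, 8.42, 10.14 and 9.02 in the Car1-high arrays and 6.99, 7.24 and 6.90 in the Car1-low arrays. T-ALL 6 was the highest, and the median difference was 3.27 on chip 2, which holds it, against 1.19 on chip 1. Over the 13 other arrays 0 of 23 rose or fell with Car1, and the slope of S100a8 was 0.75 with an adjusted p of 0.352. Thymus graft 3 decided this count: without it 20 of the 23 rose and 0 fell. Among the 20 were Lcn2 (slope 1.57, adjusted p = 0.0342), Ltf (1.42, 0.0458) and Mpo (1.61, 0.0082), while S100a8 did not pass (0.76, 0.499). In bulk RNA, more cells of a type and more RNA per cell cannot be told apart, here and for every list that follows.

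Platelet and megakaryocyte genes were also higher. Of 20 measured, 10 were called higher and 0 lower, and 10 rose with Car1 on the 13 other arrays, beside 2.71% of all genes. The number rising was 16 without thymus graft 3 and 7 without graft 1 or 4. Pf4, the chemokine platelet factor 4, was at 9.55, 9.87, 10.41 and 8.71 in the Car1-high arrays and at 6.93, 6.85 and 6.70 in the Car1-low arrays. Pf4 had a slope of 0.82 (limma adjusted p = 0.00369), and Ppbp, the platelet basic protein, 0.86 (adjusted p = 0.00369). Tubb1, the beta tubulin of platelets, and Alox12, their 12-lipoxygenase, had slopes of 0.63 and 0.60. All 4 kept their call without each array. The second probe of Tubb1 differed by only 0.04 between the T-ALL sets, against 2.46 for the probe used. Means of the list were 7.79 to 8.66 in the Car1-high arrays and 7.03 to 7.11 in the Car1-low arrays, with no overlap.

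Macrophage genes were higher in 3 of the 4 Car1-high arrays. Their mean was 9.30, 9.40 and 9.46 in T-ALL 2, 3 and 6 but 8.44 in T-ALL 7, which lay among the Car1-low arrays at 8.42, 8.69 and 8.30. Of 28 measured, 5 were called higher and 0 lower, beside 2.28% and 1.22% of all genes, and 15 rose with Car1 on the other arrays, beside 2.71%. Without thymus graft 3 the number rising was 24, and without graft 1 or 4 it was 14. Vcam1, an adhesion molecule of marrow and splenic macrophages and of endothelium, was at 13.07, 12.99, 12.81 and 10.56 against 10.04, 10.11 and 9.89. Vcam1 had a slope of 1.22 (adjusted p = 0.00909), although 1 of its 4 probes had the other sign. Mrc1, the mannose receptor, was at 10.00, 9.99, 10.04 and 8.07 in the Car1-high arrays and at 7.64, 7.30 and 7.85 in the Car1-low arrays. Mrc1 and Csf1r, the receptor for the macrophage growth factor CSF1, rose with slopes of 1.07 and 0.84, and both kept their call without each array. The second probe of Csf1r differed by only 0.50 between the T-ALL sets, against 1.78 for the probe used. Slc40a1, the iron exporter ferroportin of iron-recycling macrophages, had a slope of 1.08 (adjusted p = 0.012), which lost its call without thymus graft 3 (adjusted p up to 0.0535).

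Stromal genes went the same way. Of 14 endothelial genes 3 were called higher and 0 lower, with 7 rising on the other arrays, and of 19 fibroblast and matrix genes 5 were called higher and 0 lower, with 3 rising. The shares over all genes were 2.28% called higher and 2.71% rising. Without thymus graft 3 the numbers rising were 3 endothelial and 5 fibroblast genes, beside 12.2% of all genes, so the endothelial count was lower there, and without graft 4 they were 2 and 1. Without graft 1, 3 endothelial and 1 fibroblast gene rose, and without either host spleen 3 and 2. Without wild-type spleen 1 or 3 the numbers were 4 and 2, and without T-ALL Rag- 1 they were 8 and 7. Plvap, the diaphragm protein of fenestrated endothelium, was at 9.22, 9.80, 9.09 and 7.51 in the Car1-high arrays and at 7.03, 7.14 and 7.17 in the Car1-low arrays. Vwf, the von Willebrand factor of endothelium and platelets, had a slope of 0.54 (adjusted p = 0.00622) and kept its call throughout. Esam, an endothelial adhesion molecule, had a slope of 0.48 (adjusted p = 0.0402) and lost its call without any 1 of 9 arrays: the 4 grafts, T-ALL Rag- 2, wild-type spleen 1 or 3, and host spleen 4 or 5. The slope of Plvap, 0.60, did not keep its call without thymus graft 1, 3 or 4, wild-type spleen 1 or 3, or host spleen 4 or 5, with an adjusted p up to 0.081. Sparc, a matrix glycoprotein, was at 8.73, 10.90, 9.19 and 7.81 against 6.74, 6.68 and 6.68, and its slope of 0.76 lost its call without those same 7 arrays. Igfbp7, a secreted binding protein abundant in vessels, was 3.46 higher on the log2 scale, at 11.34, 12.45, 10.93 and 10.64 against 7.72, 8.66 and 7.25. Its slope of 0.99 and that of Bgn, the proteoglycan biglycan, also 0.99, lost their call without graft 1, 3 or 4. Col5a1, a fibrillar collagen chain, kept its call with a slope of 0.47.

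**Figure D2:**
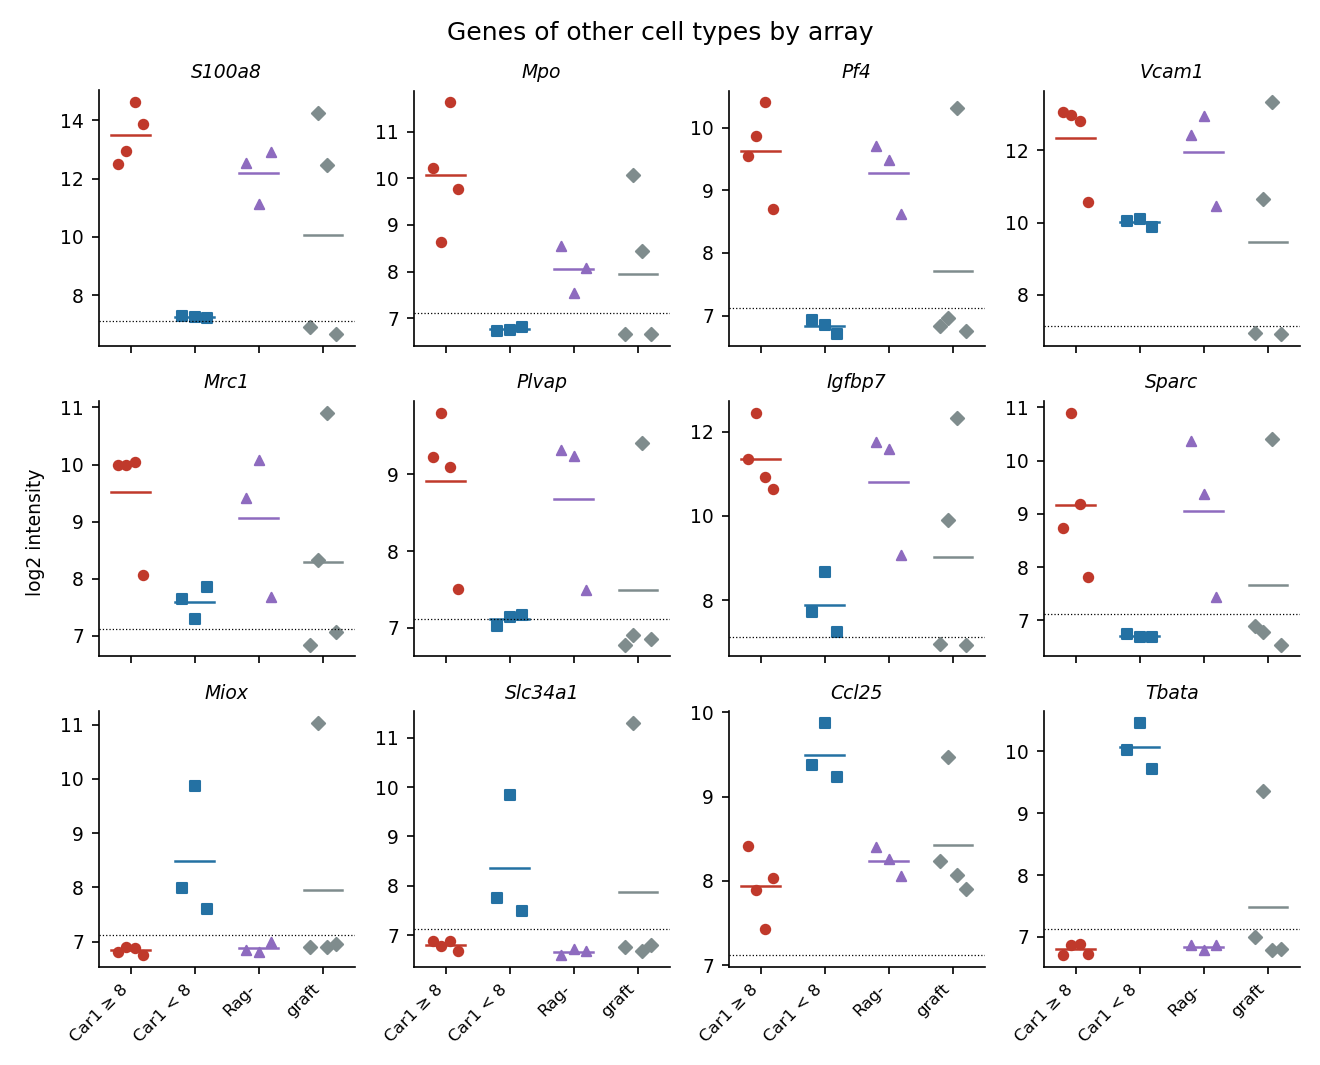
Log2 intensity of 12 genes of other cell types on each T-ALL array with Car1 at 8 or above (n = 4), below 8 (n = 3), T-ALL Rag- array (n = 3) and thymus graft (n = 4). Points are arrays, bars are means and the dotted line is the background limit of 7.12. S100a8, Mpo, Pf4 and Sparc separate the T-ALL sets. Among the arrays shown, Miox, Slc34a1 and Tbata are above background only in the Car1-low set and in 1 graft.

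In the other direction, a few genes of kidney tubule and thymic epithelium were lower in the Car1-high set. Of 34 kidney tubule genes 21 were measured, 0 were called higher and 2 lower, beside 2.28% and 1.22% of all genes. A positive difference was found for 3 of the 21, beside 47.7% of all genes. Miox, the myo-inositol oxygenase of proximal tubule, was at 6.82, 6.90, 6.89 and 6.75 in T-ALL 2, 3, 6 and 7, all below background, and at 7.99, 9.87 and 7.61 in T-ALL 1, 4 and 5. Slc34a1, the phosphate transporter of the same cells, was at 6.89, 6.77, 6.89 and 6.67 against 7.76, 9.84 and 7.48. T-ALL 4 was the highest for both, and thymus graft 2 was higher still, with Miox at 11.03. Kidney list means were 7.22 to 7.39 in the Car1-high arrays and 7.40, 8.03 and 7.45 in the Car1-low arrays, which is apart by a margin of 0.01 only, and 0 of the 21 rose or fell on the other arrays (2 rose without thymus graft 3). Without T-ALL 4 the differences were −0.96 for Miox and −0.82 for Slc34a1, under the 2-fold limit.

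Of 12 thymic epithelial genes measured, 0 were called higher and 2 lower, beside 2.28% and 1.22% of all genes. Ccl25, the chemokine by which thymic epithelium draws in precursors, was at 8.41, 7.89, 7.43 and 8.04 in the Car1-high arrays and at 9.37, 9.87 and 9.23 in the Car1-low arrays. Krt8, a keratin of simple epithelia that kidney tubule also expresses, was at 7.34 to 7.48 against 8.25 to 8.82. The most negative difference of all genes was that of Tbata, a gene of thymic epithelium in mouse, at 6.70, 6.87, 6.89 and 6.72 against 10.03, 10.46 and 9.71, at least 7.72-fold lower. Its 3 probes had the same sign but ranged from −3.27 to −0.12, so the size rests on 1 probe. The list means, 7.31 to 7.49 and 7.45 to 7.77, overlapped, and the slope of Tbata on the other arrays was −0.05 (adjusted p = 0.896). Tbata was also at 9.36 in thymus graft 2 and at 9.93 and 10.63 in host spleens 4 and 5. In those spleens Ccl25 was at 10.99 and 11.33, above every T-ALL array.

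Calls in lists of other lymphoid and antigen-presenting cells stand beside 1.22% of all genes called lower. Mzb1, a plasma and B cell chaperone, was at 7.88, 6.93, 9.35 and 8.52 in the Car1-high arrays, against 11.11, 9.75 and 12.49 in the Car1-low arrays. The B and plasma cell list as a whole had a median of −0.02, with 2 of 19 called lower, Mzb1 and H2-Aa, the alpha chain of an MHC class II molecule. H2-Aa was also the 1 gene called lower among 16 MHC class II and dendritic genes, whose median was −0.37. Of 11 cytotoxic and NK genes 2 were called lower, Ccl5 and Klrd1, an NK receptor chain, and the list mean was 7.42 to 7.62 against 7.92 to 8.38. The mast cell and basophil list, 10 genes, had no call either way. Acinar genes of the pancreas stood out in T-ALL 7 alone, with a list mean of 8.60 against 7.02 to 7.06 in T-ALL 2, 3 and 6 and 6.91 to 7.01 in the Car1-low arrays. Of 16 acinar genes measured, only 5 were above background on at least 2 T-ALL arrays. Cela1, an elastase that acinar cells make, was the 1 of the 16 called higher, beside 2.28% of all genes. It was at 8.74, 9.10, 9.46 and 9.86 against 7.30, 8.37 and 7.49. The Rag- arrays on the same chip ranged from 7.14 to 9.73 for this list.

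**Figure D3:**
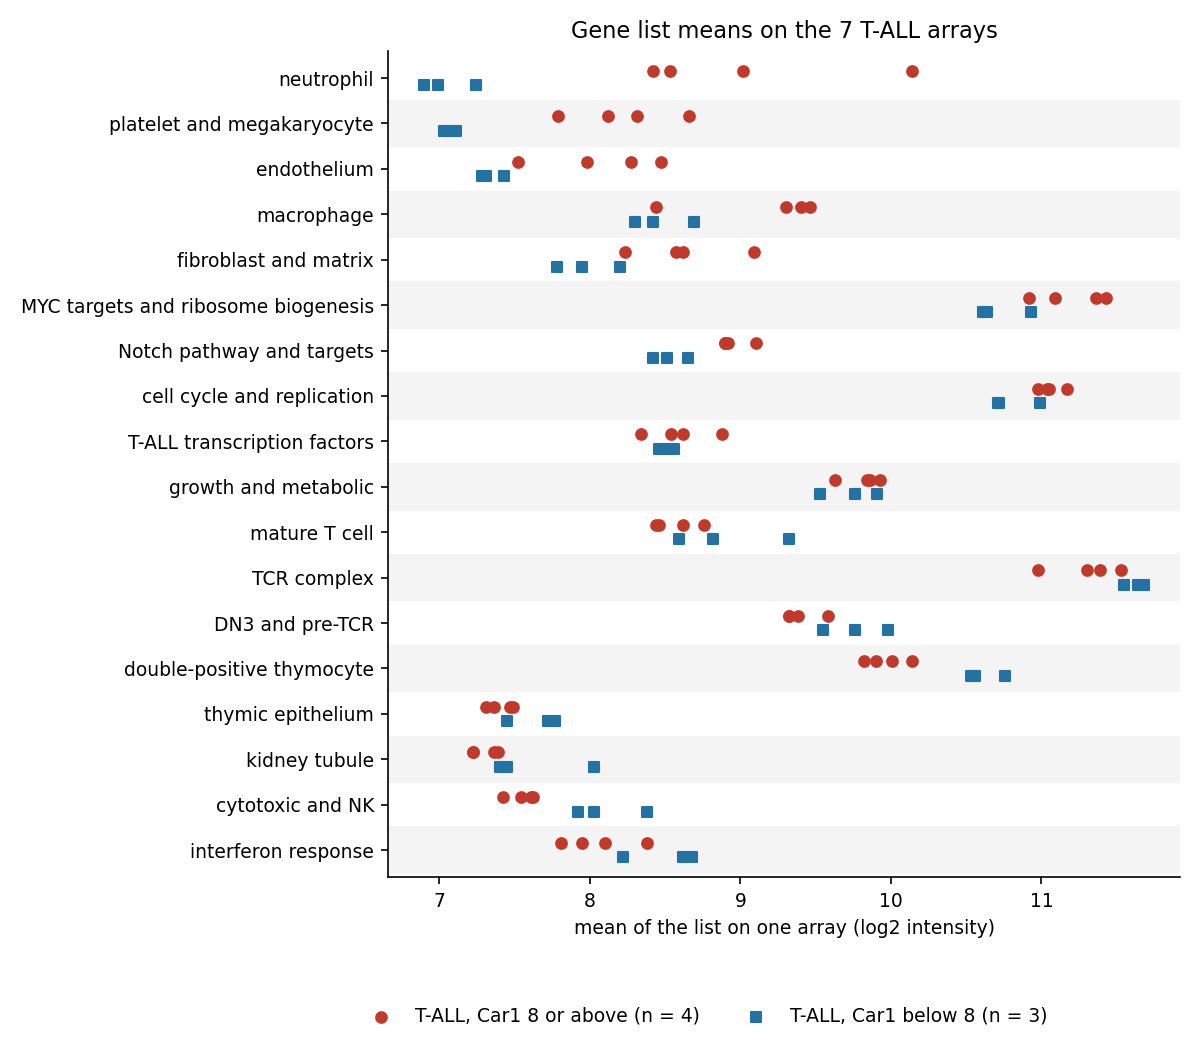
Mean log2 intensity of 18 gene lists on each of the 7 T-ALL arrays, with arrays at Car1 8 or above as red circles and those below 8 as blue squares. The neutrophil, platelet, endothelial, fibroblast and Notch lists lie higher in the Car1-high arrays and the double-positive, TCR complex, cytotoxic and kidney lists lower, with no overlap, while the other lists overlap between the sets.

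The part of each of these cell types in the T cell differences that follow was not tested. Among thymocyte stage genes, those of double-positive cells were lower in the Car1-high set. Of 18 measured, 0 were called higher and 4 lower, beside 2.28% and 1.22% of all genes. A positive difference was found for 2 and a negative one for 16, beside 47.7% of all genes positive. The median was −0.58 against −0.01 over all genes. The list mean was 10.14, 9.90, 9.82 and 10.01 in T-ALL 2, 3, 6 and 7 and 10.76, 10.56 and 10.53 in T-ALL 1, 4 and 5, so every Car1-high array was below every Car1-low one. The median was −0.64 on chip 1 and −0.69 on chip 2. On the other 13 arrays 9 of the 18 fell with Car1 and 0 rose, beside 2.11% and 2.71% of all genes. Without thymus graft 3, 12 fell and 1 rose, and without graft 1 or 4 or host spleen 4 or 5, 6 fell.

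Dntt, the terminal transferase that adds bases at receptor joins, was at 8.34, 9.66, 9.24 and 9.52 in the Car1-high arrays, against 12.44, 11.21 and 12.31 in the Car1-low arrays. The 6.95-fold gap left no overlap, and Dntt fell with Car1 on the other arrays with a slope of −0.76 (limma adjusted p = 0.012), a call it kept without each array. Rag1, the recombinase that cuts receptor genes, was at 9.74, 10.41, 9.63 and 9.89 against 12.31, 11.27 and 11.61, a 3.51-fold lower level. Its slope was −0.61 (adjusted p = 0.0345). The call was lost without graft 1 or 4, or without an array of the wild-type thymus, wild-type spleen or host spleen label. Aqp11, an intracellular water channel listed with this stage, was 2.24-fold lower, and its slope of −0.59 lost its call without any 1 of 7 arrays: graft 1 or 4, T-ALL Rag- 2, wild-type thymus 1 or 3, and host spleen 4 or 5. The second probe of Aqp11 differed by only −0.26, and leaving out a T-ALL array gave −1.37 to −0.81. Cd8b1, the CD8 beta chain, was at 13.77, 13.03, 13.30 and 14.07 against 14.85, 14.49 and 14.57. The 3 probes of Cd8b1 differed by −2.09 to −0.21, and leaving out a T-ALL array gave −1.27 to −0.92. On the other arrays Cd8b1 had a slope of −0.37 (adjusted p = 0.166), which was −0.78 and passed without thymus graft 3 (adjusted p = 0.0159).

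Cd4, the coreceptor, was near background in the Car1-high arrays at 7.39, 7.16, 7.33 and 7.39 and at 9.13, 8.20 and 7.48 in the Car1-low arrays. The sets were apart, but the difference of −0.95 was under the 2-fold limit. It fell with Car1 on the other arrays (slope −0.39, adjusted p = 0.0109) except when thymus graft 3 was left out (0.0675).

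The earlier stage list was mixed. Calls in this and the next lists stand beside 2.28% of all genes called higher and 1.22% called lower. Of 16 genes of the DN3 stage and pre-T cell receptor, Il2ra was called higher, Ccnd3, Dntt and Rag1 were called lower, and the median was −0.41 on chip 1 and 0.04 on chip 2. Ccnd3, a G1 cyclin that pre-receptor signals need, was 2.53-fold lower at 13.70, 13.02, 13.02 and 12.20 against 14.50, 14.18 and 14.30. On the other arrays it fell with a slope of −0.20 (adjusted p = 0.0208), but not without graft 1, 3 or 4 (up to 0.104). Ptcra, the invariant pre-receptor chain, overlapped at 8.59 to 9.86 and 7.67 to 9.54. Among 11 genes of the earliest progenitors (DN1 and DN2), Csf1r and Lmo2 were called higher, both genes of myeloid or erythroid cells as well. Kit, the stem cell factor receptor, was at 7.66 to 9.76 and at 9.74 to 10.58, and overlapped. Of 20 mature T cell genes 0 were called. Cd6, a surface receptor of T cells and among the brightest of them, was at 11.79 to 12.35 in the Car1-high arrays and at 10.94 to 12.22 in the Car1-low arrays. On the other arrays Cd6 fell with a slope of −0.64 (adjusted p = 0.0412), but not without graft 1, 2 or 4, any of the 3 T-ALL Rag- arrays, or host spleen 4 or 5. Among 11 TCR complex genes 1 was called lower, Cd247, the zeta chain, at 10.30, 9.96, 10.59 and 10.47 against 11.68, 11.49 and 11.59. Cd247 fell on the other arrays with a slope of −0.64 (adjusted p = 0.0123), without exception when arrays were left out. Members falling on the other arrays numbered 5 of 16 in the DN3 list and 1 of 11 in the TCR complex list, beside 2.11% of all genes. Without thymus graft 3 they numbered 9 and 8, beside 11.5% of all genes. Without graft 1 or 4 they numbered 2 and 1, beside 0.559% of all genes without graft 1 and 0.582% without graft 4.

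Several Notch targets were higher in the Car1-high set, while the median of the pathway list was near that of all genes. Of 30 measured, 5 were called higher and 0 lower, beside 2.28% and 1.22% of all genes. The 5 were Dtx1, Igf1r, Il2ra, Notch3 and Nrarp, of which Il2ra was also counted in the DN3 list and Igf1r in the growth list. Apart at any size were 8 higher and 1 lower, beside 1227 higher and 1397 lower of the 12655 genes compared. The median over the 30 was 0.08, with 16 positive and 14 negative differences, beside 47.7% of all genes positive. As a mean over the list, Notch genes stood at 8.90, 9.10, 8.92 and 8.90 in T-ALL 2, 3, 6 and 7 and 8.65, 8.42 and 8.51 in T-ALL 1, 4 and 5, with no overlap. Over the 13 other arrays, 0 of the 30 rose and 0 fell with Car1 by limma. This too rested on thymus graft 3, without which 5 rose and 7 fell, beside 12.2% and 11.5% of all genes. Without wild-type thymus 1 or 3, 2 rose, and without wild-type spleen 1 or 3, 1 fell.

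Nrarp, a target that limits Notch signalling in turn, was at 10.28, 11.69, 10.50 and 9.38 in the Car1-high arrays and at 8.63, 8.24 and 7.20 in the Car1-low arrays. The difference was 5.42-fold, 2.35 on chip 1 and 2.78 on chip 2 on the log2 scale. Dtx1, the ligase Deltex, was at 12.72, 12.05, 11.56 and 12.23 against 10.68, 10.17 and 9.93, or 3.68-fold higher. Notch3, a receptor that is itself a Notch1 target in T cells, was at 11.71, 10.85, 10.85 and 10.67 against 9.64, 8.48 and 9.70. No Car1-high array reached down to a Car1-low one in these 3 genes.

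Il2ra, the CD25 chain of the interleukin 2 receptor and a Notch-responsive gene of the DN2 and DN3 stages, was at 8.03, 9.62, 8.19 and 9.90 in the Car1-high arrays. It was below background in all Car1-low arrays, at 7.09, 7.09 and 6.88, and so at least 3.52-fold higher. Hes1, a transcriptional repressor, was at 9.95, 9.86, 9.70 and 10.22 against 9.31, 9.35 and 8.36, apart but 1.90-fold. Notch1 overlapped, at 12.20, 11.63, 10.76 and 11.88 against 11.65, 10.61 and 11.05. The slopes on the other arrays were 0.28 for Nrarp (adjusted p = 0.307), 0.45 for Dtx1 (0.483), 0.19 for Notch3 (0.699) and 0.07 for Il2ra (0.876). Their sign rested on 1 array. Without thymus graft 3 the slopes were −0.18 for Nrarp (adjusted p = 0.505), −0.66 for Dtx1 (0.197), −0.63 for Notch3 (0.0445) and −0.23 for Il2ra (0.61). Without that graft Notch1 and Hes1 also fell (−0.65, adjusted p = 0.0378, and −0.54, 0.0262), so Notch3 fell with Car1 there while it was higher in the Car1-high T-ALL. Nrarp rose without wild-type thymus 1 or 3 (0.43 each, adjusted p = 0.0248 and 0.0242).

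**Figure D4:**
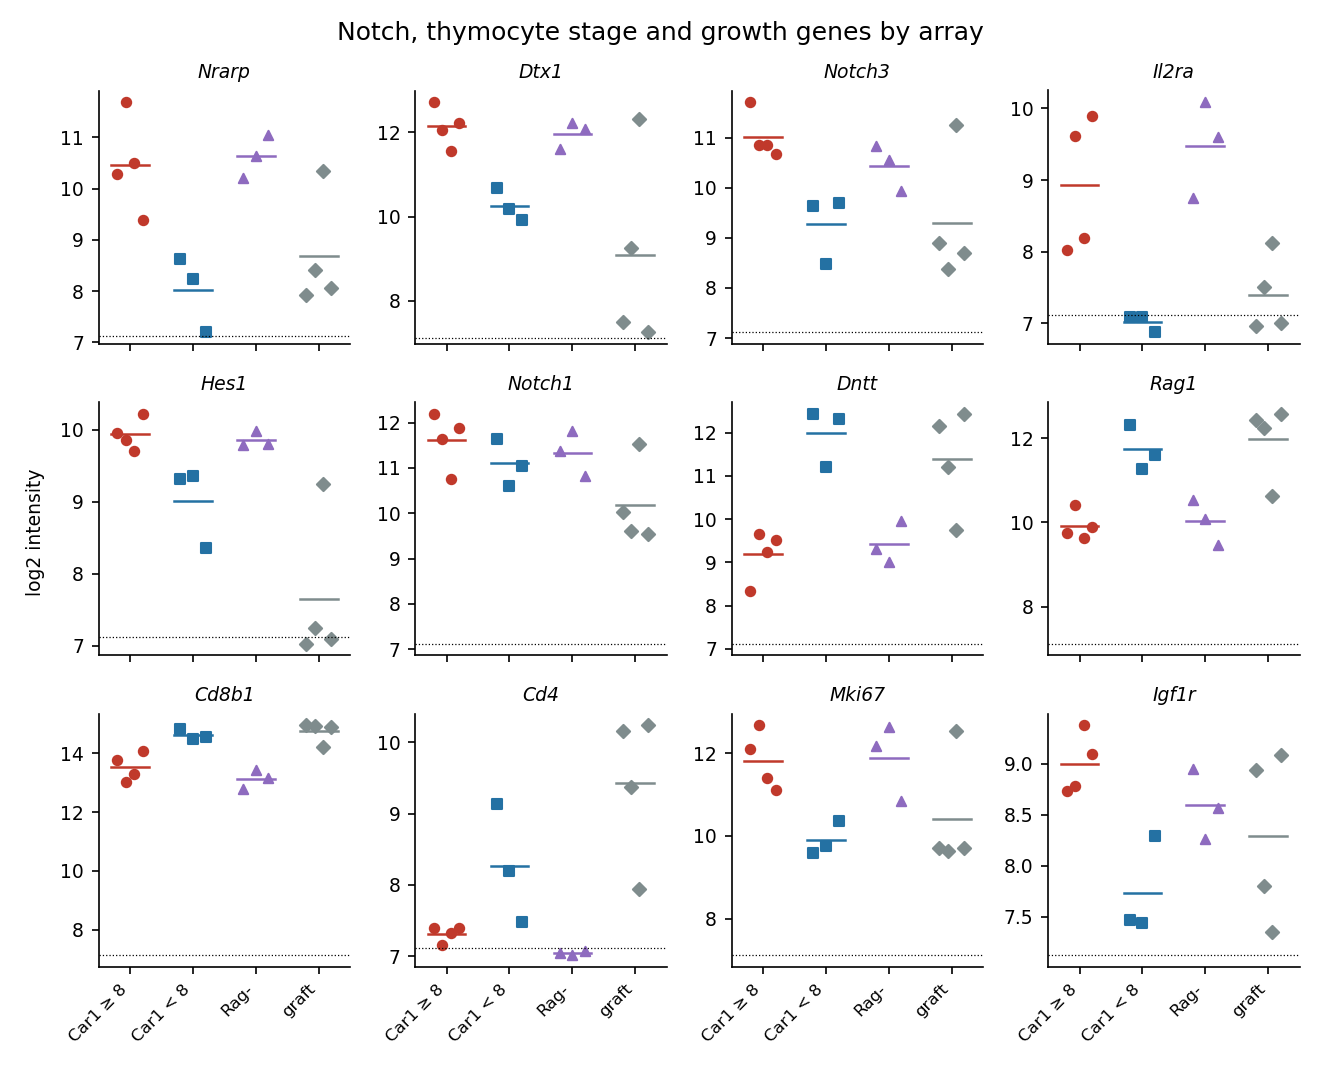
Log2 intensity of 12 Notch, thymocyte stage and growth genes on each T-ALL array with Car1 at 8 or above (n = 4), below 8 (n = 3), T-ALL Rag- array (n = 3) and thymus graft (n = 4). Points are arrays, bars are means and the dotted line is the background limit of 7.12. Nrarp, Dtx1, Notch3, Il2ra and Hes1 are higher and Dntt, Rag1, Cd8b1 and Cd4 lower in the Car1-high T-ALL, with no overlap between the T-ALL sets, while Notch1 overlaps.

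Of 31 cell cycle and replication genes 1 was called higher, a share near the 2.28% of all genes. A positive difference was found for 26, beside 47.7% of all genes, and the median was 0.24. On the other arrays 1 rose and 0 fell, but without thymus graft 3, 0 rose and 8 fell. Mki67, the proliferation antigen Ki-67, was at 12.09, 12.67, 11.40 and 11.11 in the Car1-high arrays and at 9.59, 9.77 and 10.36 in the Car1-low arrays. Its second probe differed by only 0.18. Mki67 rose on the other arrays with a slope of 0.50 (adjusted p = 0.0429), which was lost without graft 1, 3 or 4, T-ALL Rag- 2, or host spleen 4 or 5 (adjusted p up to 0.492). Erythroid precursors also divide, and the share of such cells in this difference was not tested.

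Of 20 MYC targets and ribosome biogenesis genes 2 were called higher, beside 2.28% of all genes, with a median of 0.54. A positive difference was found for 17, beside 47.7% of all genes. Higher with no overlap at any size were 9, beside 1227 of the 12655 genes compared. Cad, which starts pyrimidine synthesis, was at 9.90, 10.42, 9.92 and 10.00 against 8.52, 8.73 and 8.98, and Gnl3, the nucleolar protein nucleostemin, was 2.41-fold higher. The 3 probes of Gnl3 differed by 0.44 to 1.27, and only 1 was apart. Myc was at 8.69, 8.29, 8.84 and 8.31 against 7.70, 7.62 and 8.26, apart but 1.59-fold. The list means overlapped at 10.92 to 11.43 and 10.61 to 10.93, and 1 of the 20 rose with Car1 elsewhere. Without thymus graft 3, 0 rose and 7 fell, and the slopes went against the T-ALL difference for Cad (−0.37, adjusted p = 0.0118), Gnl3 (−0.37, 0.00967) and Myc (−0.29, 0.0331).

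Of 29 growth and metabolic genes 2 were called higher and 0 lower, beside 2.28% and 1.22% of all genes. The list had a median of −0.01, the same as all genes. Its 2 called genes were Igf1r, the receptor for insulin-like growth factor 1, at 8.73, 8.78, 9.38 and 9.10 against 7.47, 7.44 and 8.29, and Slc2a3, a glucose transporter, at 10.07 to 11.76 against 9.57 to 9.80. Igf1r had a slope of −0.20 on the other arrays (adjusted p = 0.439), which passed at −0.35 without wild-type spleen 1 or 3 (0.047 and 0.0474), and its second probe differed by 0.10. Among 24 T-ALL transcription factors Lmo2 alone was called, beside 2.28% of all genes called higher. Lmo2 was at 10.61, 10.98, 11.47 and 9.24 against 8.25, 8.65 and 8.02. Lmo2, which erythroid cells also express, rose on the other arrays (slope 0.79, adjusted p = 0.0115), as did Tal1, its partner in the erythroid list, which was at 8.33 to 10.64 against 6.60 to 6.72. Lyl1 overlapped between the sets, as did Ikzf1 and Il7r, though without thymus graft 3 Lyl1 rose on the other arrays (slope 0.69, adjusted p = 0.00333). Slc2a3 also rose there without that graft (0.43, 0.02).

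Other large differences fell outside these lists. Higher were Apol11b (21.0-fold), Prxl2a (13.3-fold), Ces2g (at least 7.11-fold) and Slc38a5, an amino acid transporter of erythroid precursors (at least 12.1-fold). Slc38a5 rose with Car1 elsewhere in every leave-out (slope 0.73, adjusted p = 0.00661). Prxl2a rose as well (0.77, adjusted p = 0.0213) but not without graft 1 or 4, and Ces2g (0.63, 0.0256) not without those or host spleen 4 or 5. Apol11b did not pass (0.81, adjusted p = 0.055), except without graft 2 (0.86, 0.00804). Lower were Dusp4, a MAP kinase phosphatase, at 10.86, 9.00, 8.72 and 7.57 against 11.68, 11.90 and 10.97, and Psmb1, a proteasome subunit, at 10.09, 10.26, 9.46 and 11.67 against 12.78, 12.78 and 12.97. Psmb1 fell on the other arrays in every leave-out (slope −0.50, adjusted p = 0.0117). Also lower were BC147527 (4.97-fold), Myl10 (4.94-fold), Acpp (4.49-fold), Cap1 (4.23-fold) and Sstr2, a somatostatin receptor (4.12-fold), and over the 13 other arrays these 5 did not pass. The second probe of Acpp differed by only −0.17 between the T-ALL sets, and that of Ces2g by 0.70, against 3.23 for the probe used. The 3 probes of Dusp4 differed by −2.48 to −0.86, and only 1 was apart. Without thymus graft 3, Myl10 (slope −0.85, adjusted p = 0.0119) and Dusp4 (−0.65, 0.0307) fell.

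Of 16 interferon-induced genes 2 were called lower and 1 higher, beside 1.22% and 2.28% of all genes. The median was −0.50, with 2 positive and 14 negative differences, beside 47.7% of all genes positive. Gbp2, a guanylate-binding protein, was at 7.50, 9.69, 9.21 and 9.58 in the Car1-high arrays and at 10.81, 11.17 and 10.67 in the Car1-low arrays. The second probe of Gbp2 differed by only −0.22, against −1.89 for the probe used. Usp18, which removes ISG15, was 3.46-fold lower, and Ifi27l2a, an interferon-induced gene outside the list, 4.11-fold lower. Rsad2, the antiviral enzyme viperin, went the other way, at 10.72, 11.04, 12.96 and 10.87 against 7.64, 8.41 and 8.64. The list means overlapped. Over the 13 other arrays 0 of the 16 rose and 0 fell, but without thymus graft 3, 4 rose, among them Gbp2 (slope 0.85, adjusted p = 0.0154), against its T-ALL difference, and Rsad2 (1.01, 0.0493), which also rose without graft 2 (0.69, 0.0246). Of 13 immediate early and heat shock genes, Ier3 was called higher (2.34-fold) and Jund lower (2.45-fold), beside 2.28% and 1.22% of all genes. The median of that list was 0.07.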

How the data were processed

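RNA was labelled as biotinylated cRNA for Illumina expression arrays, per the labels' protocols. The values used were the deposited log2 intensities of 46089 probes on 20 arrays. The authors had quantile normalized them, as read from the values: once sorted, the arrays matched to within 0.01. Which software did this is not given in the sources used here. A further 20 columns, of unnormalized values, matched no label with certainty and were not used.

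Background was the mode of all values (6.78) plus 3 SD. A gene was kept if a probe exceeded it on at least 2 arrays, which left 12710 genes. Symbols came from the platform annotation, updated through RefSeq gene tables. Of the probes, 35667 had 1 symbol, 0 several and 10422 none.

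The members, the 26 lists and the named genes were chosen with earlier results of these data known. Named genes were the 12 largest differences each way, up to 4 called members (or the 2 brightest) of each list and a fixed set. Differences are means of the Car1-high arrays minus means of the Car1-low arrays. For an "at least" fold, dim arrays were raised to the background limit. Slopes used limma 3.58.1 in R 4.3.3 with an intensity trend, checked on simulated data. Figures used matplotlib 3.10.9. The number of arrays, 7 in the split and 13 in the test, limits the precision. Alternatives covered background, filter, probes, scaling, chip, covariate and each array left out.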

Additional observations from a re-analysis of the deposited data

Results flagged for a closer look

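In the set of 4 Car1-high arrays, 117 series of values (26 list means and 91 named genes) were looked at for 1 array far from the others, and 11 had one. Chance alone gives such an array in about 1 in 20 groups. T-ALL 7 stood apart in 6 of them. It was at 7.64 for the DN1 and DN2 list, at 8.44 for the macrophage list, at 8.60 for the pancreas acinar list, at 7.43 for Lyl1, at 8.07 for Mrc1 and at 10.56 for Vcam1, low in all but the acinar list. T-ALL 3 was high for the Notch list at 9.10 and low for H2-Aa at 7.38. T-ALL 6 was low for Kdm5d at 6.93 and high for Rsad2 at 12.96. T-ALL 2 was high for Dgka, a lipid kinase of T cells, at 11.57.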

How the results depend on the processing

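No paired analysis was possible because replicate numbers pair nothing between 2 sets of 1 label. With background subtracted, the counts were 605 higher and 390 lower; at 1.5-fold they were 651 and 554. Leaving out each T-ALL array gave 301 to 410 higher and 169 to 248 lower. Among the list medians that moved were the following. With background subtracted they were −0.45 for DN3, 3.35 for neutrophil and −0.56 for kidney tubule. On chip 2 they were 0.04 for DN3, 0.21 for Notch, 1.05 for macrophage, 3.27 for neutrophil and −0.08 for pancreas acinar. On chip 1 they were −0.03 for Notch and 0.17 for growth. With chip as a block the double-positive median was −0.74. Without an intensity filter the Notch median was −0.02, the fibroblast median 0.10 and the cytotoxic median −0.14. Leaving out T-ALL arrays, the double-positive median ranged from −0.74 to −0.48, and the acinar one from −0.01, without T-ALL 7, to 0.44. Over all alternatives, 358 of 390 values of list medians moved by less than the spread between arrays and 24 had the opposite sign, in the DN3, Notch, growth, T-ALL factor, mast cell, B cell, acinar, immediate early and sex chromosome lists. Of 1050 values of differences of called genes, 960 moved by less than the spread and 0 had the opposite sign. The lack of overlap fixes that sign when an array is left out or a chip is taken alone. The 0 is therefore no sign of stability. Genes rising and falling with Car1 numbered 16 and 43 with Car1 as a step at 8, 737 and 596 with the erythroid mean in its place, and 137 to 1545 and 71 to 1457 over single arrays left out. The cause was not tested. Values near background understate differences.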

Other observations

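The sex-linked genes were not uniform among the T-ALL arrays, and 0 of the 4 measured were called. Eif2s3y, a Y-linked gene, was at 9.36, 6.61, 7.20 and 9.79 in T-ALL 2, 3, 6 and 7 and at 6.71, 6.59 and 6.77 in T-ALL 1, 4 and 5. Xist, the RNA of the inactive X, was at 7.76, 7.71, 6.95 and 6.80 in the Car1-high arrays and at 6.74, 6.82 and 6.80 in the Car1-low arrays. Only T-ALL 2 and 7 had Eif2s3y well above the background limit of 7.12, and the sets overlapped in both genes. Kdm5d, another Y-linked gene, was at 7.73, 7.68, 6.93 and 7.69 in the Car1-high arrays and at 7.74, 7.49 and 7.96 in the Car1-low arrays. It overlapped too, and was above that limit on every T-ALL array but T-ALL 6.

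The T-ALL arrays marked Rag- were not part of the split. Their Car1 values were 11.18, 12.21 and 11.15, and their list means were 9.80 to 9.97 for the double-positive stage, 8.94 to 9.02 for Notch and 7.57 to 8.19 for neutrophil genes.

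After the differences in Notch targets had been seen, the letters TGGGAA, the core bound by the Notch partner RBPJ, were looked for on both strands in the 250 bases before the start of Nrarp, Dtx1, Notch3 and Il2ra in RefSeq promoters of GRCm38.p6. None of the 4 held them (0 matches), and 21.6% of 32851 promoters did. That says only that these letters are not in this window.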
